A study of Mus musculus with 12 samples.

Results

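The nuclear genes of oxidative phosphorylation were followed over all 6 groups of a differentiation experiment in C2C12 cells, a mouse line of continuously growing myoblasts which, once serum is withdrawn, fuse and form myotubes. A gene was a member when its symbol in the array annotation began with Ndufa, Ndufb, Ndufc, Ndufs, Ndufv, Sdh, Uqcr, Cox4 to Cox8 or Atp5, leaving out the muscle and ubiquitous pairs Cox6a1 and Cox6a2, Cox7a1 and Cox7a2, and Cox8a and Cox8b, and when its probe was detected (detection p under 0.05) on at least 2 arrays. Of 86 symbols that match, 79 passed, out of 10847 genes tested in all. The other 7 (Cox4i2, Cox7b2, Cox8c, Ndufaf6, Ndufs1, Sdha and Uqcrfs1) had no probe above background on 2 arrays, so the flavoprotein subunit of complex II, the largest core subunit of complex I and the Rieske protein of complex III are not described. The prefixes also take in genes that are not subunits. There were 33 members of complex I, 3 of complex II, 6 of complex III, 8 of complex IV and 16 of complex V, and 13 others: the assembly factors Ndufaf1, Ndufaf2, Ndufaf3, Ndufaf4, Ndufaf5, Ndufaf7, Ndufaf8, Sdhaf1, Sdhaf2, Sdhaf3 and Sdhaf4, the pseudogene Ndufs5-ps and Cox7a2l.

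Oxidative phosphorylation takes place in the inner mitochondrial membrane. Complexes I to IV pass electrons from NADH and succinate to oxygen. Complexes I, III and IV pump protons, and complex V, the ATP synthase, uses the returning protons to make ATP. A few core subunits are encoded in mitochondrial DNA and the rest in the nucleus, so that both sets and a series of assembly factors must be made together. Myoblasts rely largely on glycolysis, and muscle differentiation is known for a growth of the mitochondrial network.

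All 6 groups were C2C12 cells transfected with siRNA at 100 nM and moved to differentiation medium. The siRNA was scrambled (siSCR), against BRM (siBRM) or against BRG1 (siBRG1), the 2 alternative ATPases of SWI/SNF chromatin remodelling complexes, and RNA was taken at 18 h or 48 h, with 2 arrays in each group. The series asks which genes are regulated by BRM, by BRG1 or by both. Nothing in the labels says whether the 2 replicates were separate cultures, so the p-values below measure only the spread between these arrays, which may be technical.

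The arrays lay on 3 BeadChips. The first held the 18 h arrays of replicate 1, the second the 48 h arrays of replicate 1 and the third all arrays of replicate 2, so that only replicate 2 compares the times on 1 BeadChip. Mean signals were lowest on the first BeadChip (513 to 545.9), then 664.9 to 794 for the 48 h arrays of replicate 1, and 1218 to 1644 for replicate 2, and 68 to 78 of the 79 members were detected on an array. The muscle genes Des, Myod1, Myog and Acta1 were detected on all 12 arrays and Myf5 on 0, and of the markers of other cell types Pdgfra was detected on 8 arrays and Pecam1 on 1. Against siSCR, Smarca2 (BRM) differed in siBRM cells by -1.17 on the log2 scale at 18 h and -0.59 at 48 h, and Smarca4 (BRG1) in siBRG1 cells by -1.21 and -1.94, lower in both replicates each time, but neither passed the test (limma, adjusted p = 1 for each). Smarca4 was detected on 10 of the 12 arrays. In siBRG1 replicate 1 it read 6.09 at 18 h and 6.14 at 48 h, under the detection limits of 7.36 and 6.61. Its differences therefore include values below detection. In bulk RNA, fewer cells of a type and less RNA per cell cannot be told apart.

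From 18 h to 48 h of differentiation the members were, as a group, slightly higher. The median log2 difference over the 79 members was 0.39 with siSCR, 0.32 with siBRM and 0.22 with siBRG1, against -0.06, -0.02 and -0.02 over all genes tested. Under siSCR 43 members were higher at 48 h in both replicates, a share of 54.4% against 25.3% of all genes, and 9 were lower in both, against 31.9%. Under siBRM it was 46 higher (29.1% of all genes) and 6 lower (31.7%), and under siBRG1 44 higher (31% of all genes) and 10 lower (33.9%). When the arrays were scaled to equal medians in place of quantiles, the shares of members higher and lower in both replicates were 78.5% and 2.53% with siSCR (41.2% and 10.9% of all genes), 27.8% and 3.8% with siBRM (19.9% and 27.3%) and 74.7% and 3.8% with siBRG1 (35.3% and 17%). The median standard error of a single member in the siSCR step was 0.54.

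No member passed the test of any of these steps on its own. With limma's moderated test over all probes, 0 of the 79 were called under siSCR (0.323% of all genes), 0 under siBRM (0.461%) and 0 under siBRG1 (0.101%), and with each kind of block it was 0 again. In the same order of siRNAs, all genes gave 1.65%, 1.5% and 0.479% with the BeadChip as a fixed block, 2.65%, 2.5% and 0.867% with the replicate number, and 2.77%, 2.5% and 1.1% with the BeadChip as a random block. At an unadjusted p under 0.05 there were 2, 3 and 0 members without a block (5.39%, 4.76% and 3.36% of all genes) and 6, 6 and 3 with the fixed BeadChip block (17.2%, 14.6% and 11%). The muscle isoforms of cytochrome c oxidase, which the rule leaves out, differed among themselves. Averaged over the siRNAs, the log2 intensity of Cox6a2 rose by 6.28 ± 0.43 (SE) and that of Cox8b by 4.82 ± 0.44, both with a call (adjusted p = 0.000241 and 0.000735 in limma) and higher in 6 of 6 within-replicate steps, though they were detected on 10 and 8 of the 12 arrays and include values below detection, while Cox7a1 differed by 0.36 ± 0.22 (0.18 and 0.54 in the replicates, adjusted p = 0.673). The 79 members ranged from -0.72 to 1.88.

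The steps of the 2 replicates differed in size, and the array batch moves with them. The member median was 0.47 in replicate 1 and 0.18 in replicate 2 under siSCR, 0.66 and 0.13 under siBRM, and 0.19 and 0.22 under siBRG1. In replicate 1 the 18 h and 48 h arrays lie on different BeadChips, and there time and array batch cannot be told apart. The offset between the replicates, in the mean over the siRNAs at 18 h, ran from -1.34 to 4.72 among the members. Its median size was 0.76, beside 0.84 over all genes. Replicate 2 was higher by more than 1 in 27 members and lower by more than 1 in 5, beside 2218 and 2231 of the 10847 genes. Across the 79 members the siSCR step of replicate 1 was set against the offset between replicates of the siBRM arrays at 18 h. These share a BeadChip with the siSCR arrays, and Pearson's r was 0.78. The siSCR step of replicate 2 was set against the siBRM offset at 48 h instead, with r = -0.21. In the same way, the siBRM step against the siBRG1 offsets at 18 h and 48 h gave 0.67 and -0.12. The siBRG1 step against the siSCR offsets gave 0.45 and 0.31. The offsets differ within each pair of values, so the replicates are not compared on a like basis. Over all genes the same correlations were 0.46 and -0.21, 0.26 and -0.04, and 0.24 and 0.38. All points of a correlation share the same arrays. The 38 members with a mean offset at 18 h over 0.5 had a median siSCR step of 0.91 in replicate 1 and 0.16 in replicate 2. It was -0.22 and 0.16 for the 18 with an offset beyond 0.5 in the negative direction, and 0.24 and 0.28 for the 23 between. This mean offset includes the siSCR arrays at 18 h, which the siSCR step subtracts, so part of these differences is built in. Where values of both replicates are given below, replicate 1 comes first.

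**Figure D1:**
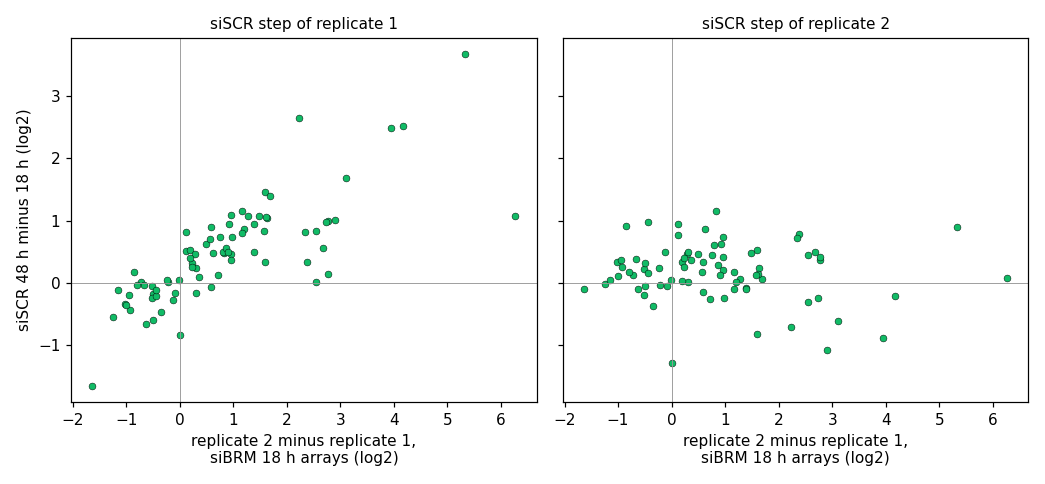
siSCR step from 18 h to 48 h (log2, vertical axis) of each of the 79 members against the difference of the 2 siBRM arrays at 18 h (replicate 2 minus replicate 1, log2, horizontal axis), for replicate 1 (left) and replicate 2 (right). The points follow the offset in replicate 1 (r = 0.78). The correlation of the points on the right was not computed.

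Counted over the 3 siRNAs, whose steps use different arrays, 35 of the 79 members (44.3%) were higher at 48 h in all 3 steps of replicate 2, where 22.5% of all genes were, and 6 were lower in all 3, against 27.3%. Over all 6 steps of both replicates, 24 members (30.4%) were higher each time, against 10.7% of all genes, and 3 were lower each time, against 12.7%. By complex, the members higher in all 3 steps of replicate 2 were 17 of 33 in complex I, 0 of 3 in complex II, 4 of 6 in complex III, 2 of 8 in complex IV and 7 of 16 in complex V. In replicate 1 they were 18, 3, 2, 2 and 8, and over all 6 steps 12, 0, 2, 1 and 5. No difference between complexes was tested. Of lists outside the rule, in replicate 2, electron carriers and ubiquinone synthesis gave 6 of 16 genes (37.5%), other assembly factors 9 of 27 (33.3%), fatty acid oxidation 4 of 13 (30.8%), the cytosolic ribosome 17 of 58 (29.3%), the mitochondrial ribosome 14 of 73 (19.2%), and pyruvate dehydrogenase with the citric acid cycle 1 of 15 (6.67%).

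**Figure D2:**
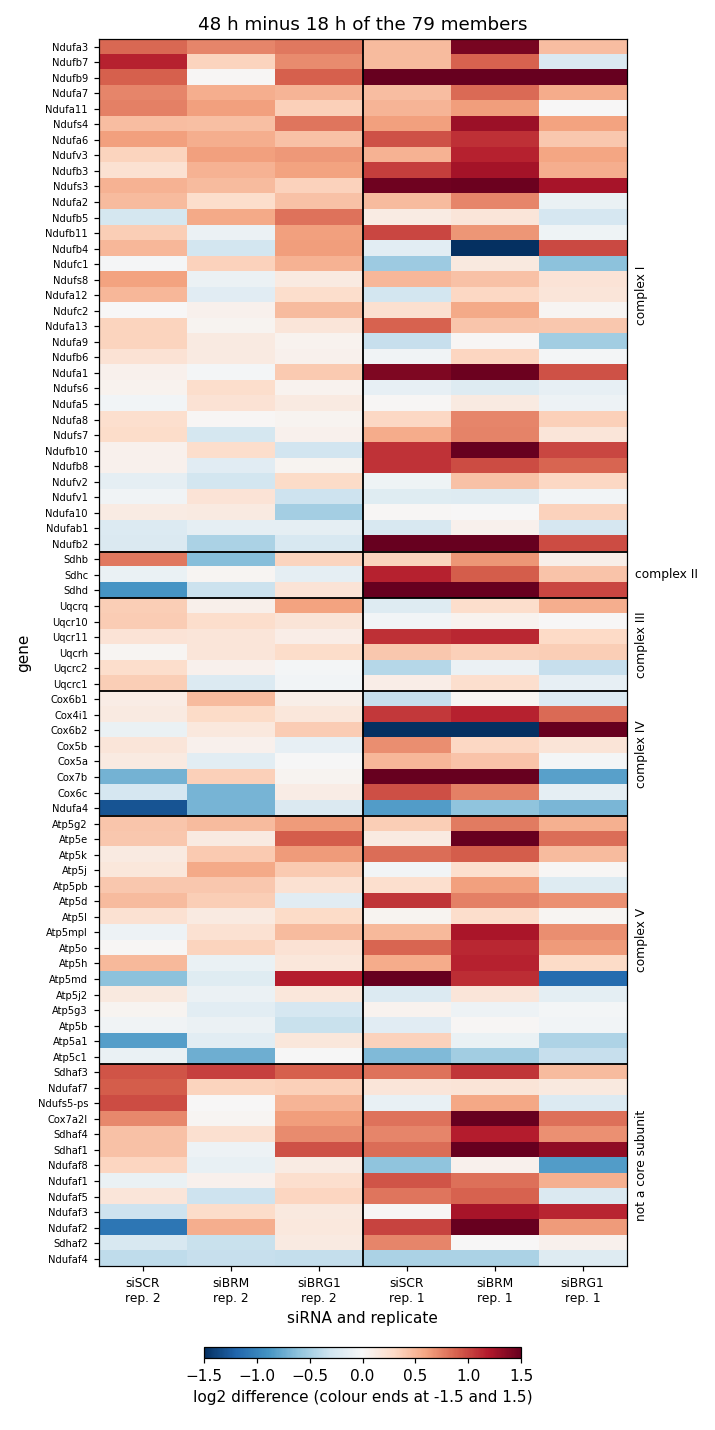
Log2 difference from 18 h to 48 h of the 79 members (rows, by complex and then by mean step in replicate 2) with each siRNA in replicate 2 (left 3 columns) and replicate 1 (right 3 columns). Red is higher at 48 h, and colours end at -1.5 and 1.5. The upper rows of complex I are red in all or nearly all columns, and the row of Ndufa4 is blue in all 6.

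To use all 12 arrays in a single comparison, the step was averaged over the 3 siRNAs, which was added after the data were seen. The member median of this average was 0.30 (0.38 in replicate 1 and 0.17 in replicate 2) against -0.03 over all genes, with 51 members higher in both replicates (30% of all genes) and 8 lower (34.5%). Under median scaling the shares were 62% and 1.27% of the members and 32.7% and 15% of all genes. In limma 0 members were called (2.03% of all genes), and 7 had an unadjusted p under 0.05 (11.7%). With the BeadChip as a block, where this average rests on replicate 2 alone, 1 was called (4.53% of all genes) and 11 had an unadjusted p under 0.05 (22.1%). It was 1 with the random block (7.12%), and with the replicate number as a block 13 were (13.7%), a share of the members close to that of all genes. By complex the median in replicate 2 was 0.19 for complex I, -0.07 for complex II, 0.16 for complex III, 0.01 for complex IV and 0.20 for complex V, and in replicate 1 it was 0.38, 0.83, 0.14, 0.35 and 0.39.

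**Figure D3:**
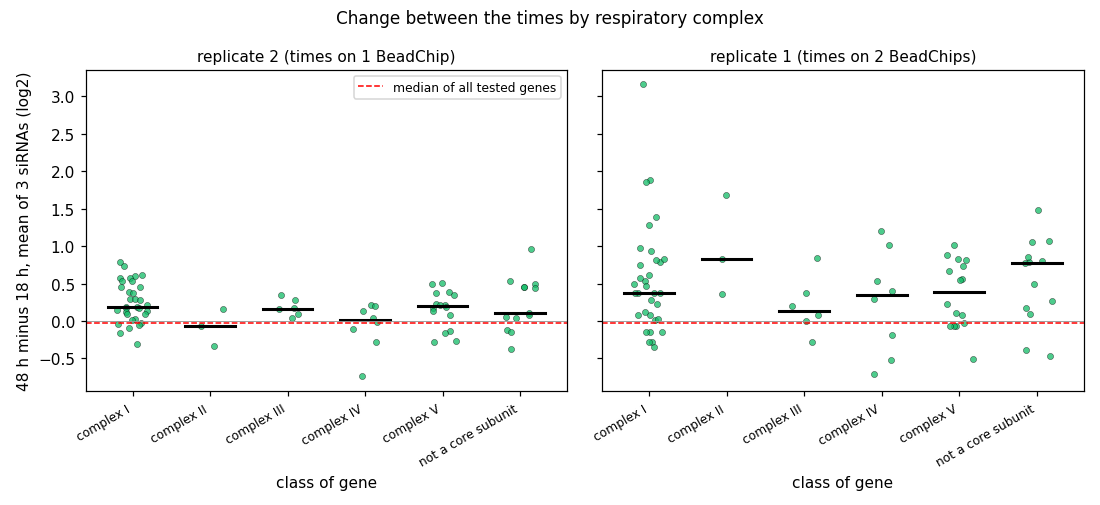
Log2 difference between 48 h and 18 h averaged over the 3 siRNAs (vertical axis) for each member, by complex, in replicate 2 (left) and replicate 1 (right). A point is a gene, a black bar the median of its class and the dashed line the median of all tested genes. The points spread more in replicate 1, and the medians of complexes I, III and V lie above the dashed line in both.

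The member with the lowest adjusted p in the averaged step was Sdhaf3, an assembly factor that helps the iron-sulphur subunit of succinate dehydrogenase to mature. Its log2 intensity at 18 h was 9.02 and 9.23 with siSCR (replicates 1 and 2), 9.10 and 9.21 with siBRM and 9.28 and 9.14 with siBRG1. At 48 h it was 9.83 and 10.17, 10.17 and 10.24, and 9.76 and 10.04. Every 48 h array lay above every 18 h array. The averaged difference was 0.87 ± 0.22 (SE, limma adjusted p = 0.106), with 0.79 in replicate 1 and 0.96 in replicate 2. It passed with the BeadChip as a block (0.96 ± 0.19, adjusted p = 0.0387), where leaving out any of 11 of the 12 arrays ended the call, and with the replicate block (adjusted p = 0.0056). Over all the settings tried on all 12 arrays its adjusted p ran from 0.0056 to 1. A second tested probe of Sdhaf3 gave 0.46, and 0.57 in replicate 2.

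Sdhaf4, which binds the flavoprotein subunit of succinate dehydrogenase, had the same separation of the times as Sdhaf3. Sdhaf4 stood at 10.84 and 11.33, 10.73 and 11.49, and 10.96 and 11.31 at 18 h in the order of siRNAs and replicates above, and at 11.57 and 11.78, 11.90 and 11.73, and 11.64 and 12.01 at 48 h. The difference was 0.66 ± 0.25 (limma adjusted p = 0.349, and 0.0313 with the replicate block). Sdhaf1, which acts on the iron-sulphur subunit too, averaged 0.96 ± 0.51 (1.48 in replicate 1 and 0.44 in replicate 2, adjusted p = 0.584), and Sdhaf2, which attaches FAD to the flavoprotein, averaged 0.06 ± 0.33. The measured subunits of the enzyme were less even between the replicates. Sdhb, the iron-sulphur subunit, was 0.26 ± 0.56, and the membrane anchors Sdhc and Sdhd were 0.38 ± 0.38 and 0.68 ± 1.03, with 0.16, -0.07 and -0.33 in replicate 2. Sdhd was above background on 9 of the 12 arrays.

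In complex I the members with the highest averages among those detected on every array included Ndufs3, a core subunit of the module that holds the ubiquinone site. Ndufs3 read 11.22 and 12.98 with siSCR at 18 h and 12.68 and 13.50 at 48 h. With siBRM it went from 11.11 and 12.71 to 12.58 and 13.18, and with siBRG1 from 10.87 and 12.93 to 12.11 and 13.28. Each step was upward, but the gap between the replicates at 18 h was wider than the step of replicate 2, and the averaged difference of 0.92 ± 0.51 (adjusted p = 0.611, and 0.0276 with the replicate block) was made of 1.39 and 0.45. Ndufv3, an accessory subunit near the NADH-binding site, behaved more evenly: from 13.83 and 13.76 to 14.35 and 14.09 with siSCR, from 13.37 and 13.56 to 14.52 and 14.18 with siBRM, and from 13.71 and 13.35 to 14.31 and 14.00 with siBRG1. All of its 48 h arrays lay above all of its 18 h arrays, by 0.64 ± 0.22 in the average (adjusted p = 0.297), and its 3 tested probes gave 0.64, 1.03 and 0.31.

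Other accessory subunits of complex I were higher at 48 h in both replicates, some by less in replicate 2. Ndufa3 averaged 0.79 ± 0.27, with 0.79 in each replicate. Ndufs4, whose loss causes a mitochondrial encephalopathy in mice, averaged 0.70 ± 0.25 (0.83 and 0.57), and its 4 tested probes gave 0.44 to 0.72. Ndufa6, a LYR protein that carries the acyl carrier protein, averaged 0.67 ± 0.30 (0.81 and 0.53), Ndufa7 0.61 ± 0.31 (0.62 and 0.60) and Ndufb3 0.70 ± 0.47 (0.94 and 0.45). Each was higher in 6 of 6 steps and passed only with the replicate block (limma adjusted p from 0.0176 to 0.0305 for these and 0.0236 for Ndufv3). Ndufb9, with the highest average of all members at 1.88 ± 1.22, was at background on the 3 arrays of replicate 1 at 18 h, so that the 3.16 of replicate 1 is a difference from values below detection. In replicate 2 it was 0.61, and it passed with the replicate block (adjusted p = 0.0325).

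**Figure D4:**
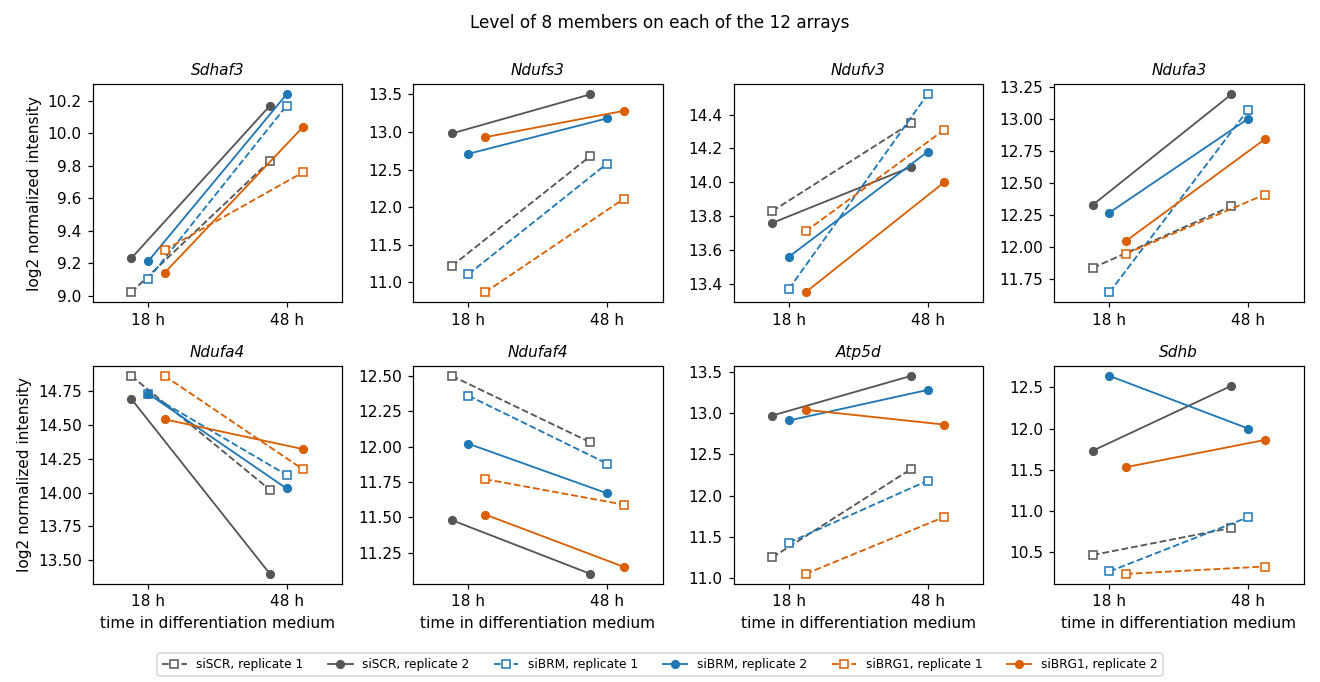
Log2 normalized intensity (vertical axis) of 8 members at 18 h and 48 h on each of the 12 arrays, with siSCR in grey, siBRM in blue and siBRG1 in orange. Open squares with dashed lines are replicate 1 and filled circles with solid lines replicate 2, and each line joins the arrays of 1 siRNA and replicate. The lines of Sdhaf3, Ndufs3, Ndufv3 and Ndufa3 all go up, those of Ndufa4 and Ndufaf4 all go down, and Atp5d and Sdhb lie far apart between the replicates.

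Ndufa4 went the other way. It was first counted with complex I and is now known as a subunit of cytochrome c oxidase. Its log2 intensity was 14.86 and 14.69 with siSCR, 14.73 and 14.73 with siBRM and 14.86 and 14.54 with siBRG1 at 18 h, and 14.02 and 13.40, 14.13 and 14.03, and 14.17 and 14.32 at 48 h. Every 48 h array lay below every 18 h array, the only member for which this was so (1.69% of all genes), while Ndufv3, Sdhaf3 and Sdhaf4 were the members separated upward (2.86%). The averaged difference was -0.72 ± 0.23 (adjusted p = 0.226), with -0.71 and -0.74 in the replicates, and it passed with the replicate block (adjusted p = 0.0181, over settings from 0.0181 to 1). The step was -1.06 ± 0.39 with siSCR, -0.65 with siBRM and -0.46 with siBRG1. The siSCR step alone passed in limma with the BeadChip as a block when the siSCR array of replicate 1 at 48 h was left out (-1.29, adjusted p = 0.0423).

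The other members that were lower in every step were Ndufaf4, an assembly factor of complex I, and Atp5c1, the gamma subunit in the central stalk of the ATP synthase. Ndufaf4 averaged -0.37 ± 0.29 (adjusted p = 0.784), with -0.38 and -0.37 in the replicates, and Atp5c1 -0.39 ± 0.31 (adjusted p = 0.791), with -0.51 and -0.28. Under median scaling both were slightly higher at 48 h under siSCR, by 0.02 and 0.07. The catalytic subunits of the ATP synthase stood close to no difference, with -0.11 ± 0.21 (-0.06 and -0.16) for Atp5b and -0.17 ± 0.45 (-0.07 and -0.27) for Atp5a1. Its c-ring is encoded by paralogues with the same mature protein: Atp5g2 averaged 0.54 ± 0.34 (0.56 and 0.51), higher in 6 of 6 steps and called with the replicate block (limma adjusted p = 0.0469), and Atp5g3 -0.07 ± 0.21.

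Of complex III, Uqcr11 averaged 0.50 ± 0.27 (0.84 and 0.17) and Uqcrh, the hinge protein, 0.27 ± 0.21 (0.38 and 0.16), each higher in 6 of 6 steps. Of complex IV, Cox4i1 averaged 0.61 ± 0.48, but 1.02 in replicate 1 and 0.20 in replicate 2, and Cox6b1 0.02 ± 0.35 (-0.18 and 0.22). Cox6b2, its testis isoform, was detected on 2 arrays only and lies nearest to the detection limit of the rule, and at background on both arrays of 4 groups it has no interpretable fold. Cox7b (10 arrays) averaged 0.55 ± 0.54 with -0.10 in replicate 2. Among the members that are not subunits, Cox7a2l, which joins complexes III and IV into supercomplexes, averaged 0.75 ± 0.59 (1.05 and 0.46, limma adjusted p = 0.041 with the replicate block), Ndufaf7, a methyltransferase that acts on complex I, 0.35 ± 0.28 (0.18 and 0.53), and Ndufs5-ps 0.30 ± 0.34 (0.09 and 0.50). The remaining assembly factors differed between the replicates. Ndufaf2 averaged 0.47 (1.07 and -0.12), Ndufaf1 0.42 (0.77 and 0.08), Ndufaf5 0.28 (0.49 and 0.06) and Ndufaf8 -0.17 (-0.46 and 0.11). Ndufaf3 averaged 0.42 (0.80 and 0.04) but was at background on 5 of the 6 arrays of replicate 1.

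The transcription factors that are known to drive mitochondrial genes gave no called change in the averaged step. Nrf1 differed by -0.37 ± 0.45 (-0.59 and -0.16), Gabpa by -0.44 ± 0.27 (-0.33 and -0.55), Esrra by -0.17 ± 0.23 (-0.10 and -0.24) and Tfam by 0.51 ± 0.53 (limma adjusted p from 0.654 to 0.932). Ppargc1a was detected on 2 of the 12 arrays only, and no difference is given for it. A wider list of mitochondrial biogenesis factors had 17 tested genes. It also holds Ppargc1a and genes that are not transcription factors, such as Polg and Twnk. Of the 17, 5 were higher in both replicates (30% of all genes) and 9 lower (34.5%), with a median of -0.17, and 0 were called (2.03%). Cytochrome c (Cycs) and citrate synthase (Cs) differed by 0.07 ± 0.37 and 0.18 ± 0.66. Tfam, Cycs and Cs were positive in replicate 1 by 0.96, 0.62 and 0.46 and at 0.07, -0.47 and -0.10 in replicate 2.

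Promoter sequences are shown for some of the members that moved the same way in all 6 steps. Nuclear respiratory genes are known for sites of NRF1, of the ETS factor GABPA and of YY1 near their starts. RefSeq windows from 250 bases before to 50 after a start (GRCm38.p6) were given for 69 of the 79 members, 74 windows in all. On both strands, the NRF1 consensus (the capitals of Atp5g2 below are a match) was found in 18 of the 69 (26.1%), against 5.19% of 27025 genes, CCGGAAG (ETS) in 20 (29%), against 9.93%, and AAGATGGC (YY1) in 11 (15.9%), against 3.19%. TATAAA was in 7 (10.1%), against 15.7%. In the members' windows 0 matches overlapped one of another motif, and a match is a description of letters and not a bound site. The stretches below end at the base before the start, and capitals mark these motifs.
Sdhaf3, chr6:6955881-6956017, plus strand: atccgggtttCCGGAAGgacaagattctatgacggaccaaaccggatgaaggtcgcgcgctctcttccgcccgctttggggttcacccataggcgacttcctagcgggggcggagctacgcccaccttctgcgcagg
Ndufs3, chr2:90904722-90904821, minus strand: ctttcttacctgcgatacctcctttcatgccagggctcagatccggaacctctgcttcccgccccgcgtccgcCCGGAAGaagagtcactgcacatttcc
Uqcr11, chr10:80406822-80406921, minus strand: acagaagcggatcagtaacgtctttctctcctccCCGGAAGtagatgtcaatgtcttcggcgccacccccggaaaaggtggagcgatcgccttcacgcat
Atp5g2, chr15:102671048-102671147, minus strand: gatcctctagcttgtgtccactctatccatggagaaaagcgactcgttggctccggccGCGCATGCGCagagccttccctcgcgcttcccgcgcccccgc
Ndufa8, chr2:36049339-36049438, minus strand: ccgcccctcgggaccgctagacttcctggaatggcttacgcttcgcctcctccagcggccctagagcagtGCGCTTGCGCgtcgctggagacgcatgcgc
Ndufa11, chr17:56717662-56717761, plus strand: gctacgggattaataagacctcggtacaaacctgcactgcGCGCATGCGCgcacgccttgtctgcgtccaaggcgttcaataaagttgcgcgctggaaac
Atp5c1, chr2:10080433-10080532, minus strand: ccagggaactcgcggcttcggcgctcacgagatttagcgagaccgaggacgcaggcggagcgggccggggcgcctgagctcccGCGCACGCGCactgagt
Ndufaf4, chr4:24897960-24898082, plus strand: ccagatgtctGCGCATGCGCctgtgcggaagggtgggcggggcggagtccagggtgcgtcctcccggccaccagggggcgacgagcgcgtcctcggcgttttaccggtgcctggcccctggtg
Ndufa4, chr6:11907451-11907550, minus strand: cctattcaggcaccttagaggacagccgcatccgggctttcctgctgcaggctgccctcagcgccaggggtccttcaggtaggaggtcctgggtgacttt

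The first 6 belong to members higher at 48 h in all 6 steps and the last 3 to the members lower in all 6. Each of the first 6 holds an NRF1 or ETS match, but they are a selection and do not stand for all upward members. Others, such as Ndufv3 and Ndufb3, had none of the 4 motifs. The Sdhaf3 window also held NRF1 and TATAAA letters, which do not end before the start and are not marked. The NRF1 letters stand in both sets: in 8 of the 22 upward members with a window, and in Atp5c1 and Ndufaf4 of the 3 downward ones. The ETS letters were in 7 of the 22 and 0 of the 3. In Ndufs3 they begin 27 bases before the start, and in Sdhaf3 127 bases before it. The Ndufa4 window held none of the 4 motifs, and 27 of the 69 members had neither the NRF1, the ETS nor the YY1 letters in a window.

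Over both replicates and without a block, the differences between siRNAs had member medians closer to 0 than the steps in time. This did not hold throughout. In replicate 2 alone the steps were 0.18 (siSCR), 0.13 (siBRM) and 0.22 (siBRG1), and siBRM minus siBRG1 at 18 h was 0.18. With the BeadChip as a fixed block the siBRG1 step was 0.10, and siBRM minus siBRG1 at 48 h was 0.14. In limma 0 members were called against siSCR with siBRM or siBRG1 at 18 h or 48 h (0% of all genes in each comparison), and 0 with each block, where the random BeadChip block gave 0.101% of all genes for siBRG1 at 48 h and 0% elsewhere. Without a block 0 members had an unadjusted p under 0.05 with siBRM at 18 h (0.313% of all genes), siBRG1 at 18 h (1.18%), siBRM at 48 h (0.157%) or siBRG1 at 48 h (2.01%). With the fixed BeadChip block these counts were 1 (2.58%), 1 (6.06%), 0 (2.24%) and 1 (10.6%). At 18 h the member medians were 0.02 with siBRM (-0.05 and 0.10 in the replicates) and -0.01 with siBRG1 (0.07 and -0.09). With siBRM 19 members were higher in both replicates (24% of all genes) and 18 lower (26.4%), and with siBRG1 13 were higher (29.8%) and 18 lower (29.7%). Under median scaling the shares were 44.3% and 10.1% with siBRM (34.3% and 17.4% of all genes) and 7.59% and 34.2% with siBRG1 (24.1% and 35.8%).

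At 48 h siBRG1 gave the lower values. The member median against siSCR was -0.08 (-0.10 and -0.03), with 15 members higher in both replicates (30% of all genes) and 28 lower (24.1%), while the median over all genes was 0.04. Under median scaling the shares higher and lower in both replicates were 6.33% and 64.6%, beside 14.6% and 42.5% of all genes. Complex I made up 15 of the 28 lower members. Of the 26 members with several tested probes, 11 (42.3%) had all probes of the same sign in this comparison. With the mean of a gene's tested probes, 16 members were higher in both replicates and 26 lower (28.1% and 26.5% of all genes). The ATP synthase subunit Atp5d, the delta subunit of the central stalk, had the lowest difference of the members detected on all arrays with the same sign in both replicates, -0.59 ± 0.90, and was nearly the same in both replicates (-0.58 and -0.59). Its levels at 48 h were 12.32 and 13.45 with siSCR, 12.18 and 13.28 with siBRM and 11.74 and 12.86 with siBRG1, so that within each replicate siBRG1 was the lowest. At 18 h this order was not seen in replicate 2, with 12.97, 12.91 and 13.04. With the BeadChip as a block the SE of the difference was 0.24 and limma's adjusted p 0.477.

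Sdhb was lower by a like amount with siBRG1 at 48 h, -0.57 ± 0.98 (-0.47 and -0.66). Of its other probes, that detected on all arrays gave -0.43 and that detected on 6 arrays 0.26. Ndufb9, a LYR subunit of the membrane arm of complex I, was -0.54 (-0.75 and -0.33). Higher with siBRG1 at 48 h were Ndufa4, by 0.54 (0.15 and 0.92), Ndufb4, an accessory subunit of the membrane arm, by 0.47, and Atp5e, the epsilon subunit of the central stalk, by 0.44. None of these differences passed the test (limma, adjusted p = 1 for each). Beside them, the 6 tested muscle markers had a median of -0.83 with siBRG1 at 48 h, all 6 lower in both replicates, and of the muscle isoforms Cox7a1 differed by -0.76 (-0.85 and -0.67), Cox8b by -1.08 (-0.41 and -1.75) and Cox6a2 by -0.75, with opposite signs in the replicates (0.27 and -1.76). Pdgfra, a fibroblast marker and the tested gene among the markers of other cell types, differed by 1.24 (0.82 and 1.65). Its siSCR array of replicate 2 read 5.78, under the detection limit of 6.07, so the 1.65 is a difference from a value below detection. The part of these markers in the members' values was not tested.

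With siBRM at 48 h the median was 0.09 (0.11 and 0.02), with 27 members higher in both replicates (21% of all genes) and 12 lower (16.5%), and 40 of the 79 had opposite signs in the 2 replicates. This direction turned under median scaling, with a member median of -0.15 and shares of 6.33% higher and 41.8% lower in both replicates (7.09% and 43.6% of all genes), but that scaling moved the median of all genes to -0.26, and relative to it the members stood at 0.12. Atp5e differed by 0.46, Ndufc1, an accessory subunit of complex I, by 0.45 and Ndufa4 by 0.37. Ndufb9 differed by -0.72, and the cytochrome oxidase subunits Cox5b and Cox5a by -0.28 and -0.23. Both siRNAs are compared with the same siSCR arrays. Ndufa4 was lowest in the siSCR array of replicate 2 at 48 h, at 13.40 beside 14.03 and 14.32, while replicate 1 read 14.02, 14.13 and 14.17.

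**Figure D5:**
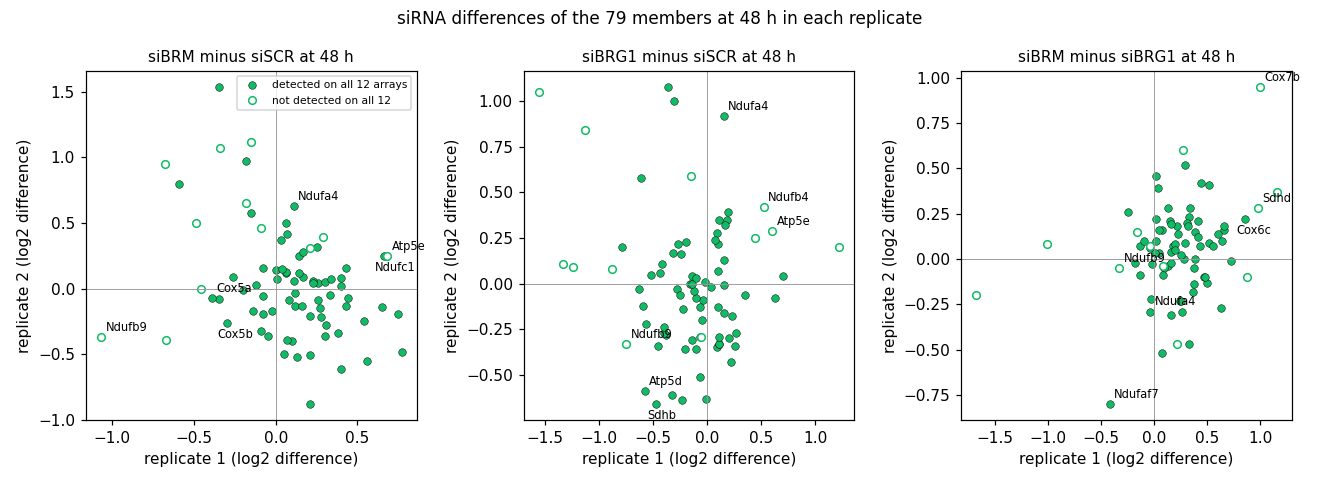
Log2 difference of each of the 79 members at 48 h in replicate 1 (horizontal axis) and replicate 2 (vertical axis) for siBRM minus siSCR (left), siBRG1 minus siSCR (middle) and siBRM minus siBRG1 (right). Filled points were detected on all 12 arrays and open points were not, and named genes are those given in the text. The right panel has 42 members above 0 on both axes and 8 below 0 on both.

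Set directly against each other at 48 h, siBRM cells had the higher values, also under median scaling (43% of members higher in both replicates and 10.1% lower, beside 23.2% and 36.5% of all genes). The member median of siBRM minus siBRG1 was 0.14 (0.23 and 0.07) against -0.01 over all genes, and 42 of the 79 members were higher in both replicates (28.7% of all genes) and 8 lower (31%). In the same comparison the 6 muscle markers had a median of 0.71, all 6 higher in both replicates, and Pdgfra differed by -1.62 (-2.13 and -1.10). Pdgfra was below detection on the siBRM array of replicate 1 (5.36, limit 6.75), so the -2.13 includes a background value. The part of these markers in the members' values was not tested. Complex I gave 17 higher and 2 lower of 33, complex V 9 and 2 of 16, complex III 4 and 0 of 6 and complex IV 5 and 2 of 8. In limma 0 members were called (0% of all genes, and 0 against 0.258% with the random BeadChip block), and 0 had an unadjusted p under 0.05 without a block (1.89%) or with the fixed BeadChip block (8.09%). Cox7b, a small structural subunit of cytochrome c oxidase, differed most among members detected on these arrays and like-signed in both replicates, by 0.98 ± 0.94, from 7.71 and 8.50 with siBRM to 6.71 and 7.55 with siBRG1. The siSCR arrays at 48 h read 8.04 and 7.44, so that siBRM lay above siSCR in replicate 2 alone. Sdhd followed with 0.63 (0.98 and 0.28) and Cox6c with 0.54 (0.86 and 0.22).

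Of the 8 members lower with siBRM in both replicates, Ndufaf7 had the lowest difference among those detected on these arrays, -0.61 ± 0.48 (-0.42 and -0.80). Its levels at 48 h were 10.18 and 10.54 with siSCR, 10.39 and 9.66 with siBRM and 10.81 and 10.46 with siBRG1. Ndufb9 differed by -0.19 (-0.33 and -0.05) and Ndufa4 by -0.17 (-0.04 and -0.29). At 18 h the median of siBRM minus siBRG1 was -0.04, with -0.17 and 0.18 in the replicates, and 16 members were higher in both (26.3% of all genes) and 11 lower (28.4%). This median turned to 0.15 under median scaling, with 29.1% of the members higher and 2.53% lower in both, but all genes moved to 0.11 with it (39% and 17.1%). Ndufaf7 was again lower there, -0.61 (-0.46 and -0.77), with 10.20 and 9.33 for siBRM and 10.66 and 10.10 for siBRG1. Sdhb, Ndufaf4 and the accessory subunit Ndufa12 were higher, by 0.57 (0.03 and 1.11), 0.55 (0.59 and 0.51) and 0.40 (0.30 and 0.51), and Ndufaf8 and Atp5o were at -0.33 and -0.22. In limma 0 members were called (0% of all genes), 0 had an unadjusted p under 0.05 without a block (1.36%) and 1 had with the BeadChip block (6.79%).

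At 18 h the largest like-signed differences from siSCR are given for members detected on all arrays of both groups. Members not detected on all of them could differ by more, such as Ndufb4 with siBRM (1.01 and 1.27). With siBRM, Cox6c was at 0.58 (0.28 and 0.88), Sdhaf2 at 0.30 and Atp5c1 at 0.26, and Ndufaf2 at -0.49, Atp5o at -0.37 and Ndufv3 at -0.33. With siBRG1, Ndufaf7 was at 0.56 (0.66 and 0.46), Ndufaf8 at 0.45 and Ndufs8, an iron-sulphur subunit of complex I, at 0.32. Sdhaf1 was at -0.65 (-0.73 and -0.57), Atp5mpl at -0.43 and Ndufa1 at -0.27. All had a limma adjusted p of 1.

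Whether an siRNA changed the course from 18 h to 48 h was tested as the difference of its effects at the 2 times. The member median of this change was 0.07 for siBRM and -0.07 for siBRG1, and 0 members were called in either (0% of all genes). At an unadjusted p under 0.05 it was 0 in both without a block (0.203% and 0.562%), and 0 for siBRM (2.34%) and 1 for siBRG1 (4.4%) with the BeadChip block. For siBRG1, 16 members had a more positive effect at 48 h in both replicates (30.3% of all genes) and 28 a more negative one (23.3%), and for siBRM it was 21 (23%) and 13 (18.6%). Median scaling gave 7.59% and 53.2% of the members for siBRG1 (17.7% and 36.8% of all genes) and 3.8% and 49.4% for siBRM (7.85% and 47%), with the siBRM median at -0.30 beside -0.34 over all genes. Of the 26 members with several tested probes, 10 had all probes of the same sign for siBRG1 and 14 for siBRM. The members named next were detected on all arrays of the groups compared and like-signed in both replicates. Among such members Ndufa4 had the most positive change with siBRG1, 0.61 ± 0.56 (0.14 and 1.07). Sdhaf1 followed with 0.50 and Uqcrq with 0.48, and Ndufb7, Atp5d and Ndufa11 were at -0.57, -0.52 and -0.45. With siBRM, Ndufaf2 was at 1.09, Ndufc1 at 0.53 and Atp5mpl at 0.52, and Sdhaf2, Ndufa13 and Ndufs8 at -0.40, -0.38 and -0.37.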

How the data were processed

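Per the file headers, the authors' deposited intensity is the bead-averaged signal of each probe, with a detection p-value against the negative controls of the array as deposited, and the bead number and bead standard error as other units. The authors' second deposited table holds intensity values with nearly equal medians on all arrays (248.7 to 249.3), and was used as an alternative. The submitters' processing notes name GenomeStudio 2009.1, and any other step is not given in the sources used here.

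Background was corrected by normexp from the detection p-values (limma 3.58.1, R 4.3.3, statmod 1.5.0, offset 16), the arrays were quantile normalized and log2 taken. Probes detected (p under 0.05) on at least 2 of 12 arrays were tested: 20415 of 45281, for 10847 genes. Where a gene had several tested probes, as 26 members did, that of the highest mean stood for it. Symbols came from the platform annotation (34885 probes with 1 symbol, 18 with several, 10378 with none), and all 79 members matched RefSeq by gene identifier. The limma model had a mean for each of 6 groups (6 residual degrees of freedom), two-sided tests and Benjamini-Hochberg adjustment over the tested probes, with a call at an adjusted p under 0.05. Errors after ± are its standard errors with 2 arrays in each group. The median residual variance was 0.441, and 0.11 with the BeadChip as a block (4 residual degrees of freedom).

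Over the 15 pairs of groups, the correlation of the replicates' deviations lay between 0.449 and 0.825, over 0.1 in every pair. The numbers were therefore taken to pair the arrays. All arrays of replicate 2 lie on a single BeadChip apart from those of replicate 1, so the array batch alone can give such a correlation. It cannot show that the cultures were paired. Alternatives were other background corrections, scalings, filters and probe choices, 3 kinds of block, and leaving out each array. The fits were also run on simulated data with known changes, whose outcome is not given here. The members and the lists were chosen with earlier results of these data known. Named in each comparison are called members, the 3 highest and 3 lowest members detected on all its arrays with the same sign in both replicates, paralogues, members outside the complexes, the Sdh genes and those nearest the detection limit. The number of arrays limits the precision.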

Additional observations from a re-analysis of the deposited data

Results flagged for a closer look

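Flagged were 4 members in which the 2 replicates agreed in sign at each time and an siRNA effect had opposite signs at 18 h and 48 h. They are not all the members of this kind. With siBRM, Ndufa13 was at 0.11 and 0.21 at 18 h and at -0.35 and -0.08 at 48 h. The share over all genes was not computed. The change was not called in limma for any member. The effect of siBRM on Ndufv3 changed by 0.46 from 18 h to 48 h, that on Ndufc1 by 0.53 and that on Sdhaf2 by -0.40. The effect of siBRG1 on Atp5e changed by 0.60. Atp5e was above background on 10 of the 12 arrays and the other 3 flagged members on all 12.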

How the results depend on the processing

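The call counts of the members were 0 in each of the 11 comparisons fixed at the start under every setting on all 12 arrays, and the median over the members kept its excess over all genes in the 3 steps between the times. Median scaling moved the median of all genes by itself, to 0.27 for the siSCR step and 0.11 for the averaged step, and relative to it the members were at 0.47 and 0.43, beside 0.45 and 0.33 in the fit reported. Under it the siSCR step gave 0.74, the siBRG1 step 0.45 and the averaged step 0.54, siBRM at 18 h gave 0.12, siBRM and siBRG1 at 48 h gave -0.15 and -0.33, and the changes of effect gave -0.30 for siBRM and -0.27 for siBRG1. With the BeadChip as a block the siSCR median was 0.17 and the siBRG1 median 0.10. The siBRG1 median was 0.14 with the BeadChip as a random block, 0.20 over the members detected on all 12 arrays, and 0.19 both without background correction and in the authors' normalized table. In the averaged step 2 members were called without background correction and 2 in the authors' table (Sdhaf3 and Ndufa4), 1 without the filter on dim probes, 1 with detection on all 12 arrays, 1 with the BeadChip as a fixed or random block (Sdhaf3 each time), and 13 with the replicate block, which changed no other call of a member. Outside the fit reported and the blocks, the share of all genes called was not computed, so those member counts cannot be set against it. For the counts of steps, 24 members were higher each time over both replicates, 35 without replicate 1 and 42 without replicate 2, and 6 were lower without either, beside 3 in all and 1 under median scaling. Median scaling turned the siSCR step of Ndufaf4 (0.02) and Atp5c1 (0.07) and the siBRG1 step of Ndufab1 (0.09, and 0.08 with the mean of its probes), which is -0.20 in the fit reported.

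Leaving out each array in turn, without a block or with the BeadChip as a block, gave 0 to 1 calls in the siSCR step and in the averaged step. The member medians ran from 0.09 to 0.65 for the siSCR step, from 0.03 to 0.68 for siBRM, from -0.01 to 0.34 for siBRG1 and from 0.11 to 0.43 for the average. Against siSCR they ran from -0.31 to 0.26 at 18 h and -0.02 to 0.17 at 48 h for siBRM, and from -0.23 to 0.20 and -0.24 to 0.07 for siBRG1. For siBRM against siBRG1 it was -0.35 to 0.34 and -0.05 to 0.29, and for the changes of effect -0.26 to 0.35 with siBRM and -0.29 to 0.20 with siBRG1. A lone array left in a group was assumed to vary like the other groups. The named differences that changed sign, none of them called, had these ranges. In the siSCR step it was Ndufaf4 from -0.94 to 0.09 and Atp5c1 from -0.78 to 0.02. In the siBRM step it was Ndufaf2 from -0.40 to 2.5. In the siBRG1 step it was Ndufs3 from -0.24 to 1.83, Cox7a2l from -0.21 to 1.67, Ndufaf4 from -0.49 to 0.02 and Ndufab1 from -0.55 to 0.16. For siBRM at 18 h it was Cox6c from -0.79 to 1.95, Sdhaf2 from -0.40 to 1, Atp5c1 from -0.14 to 0.66, Ndufaf2 from -1.94 to 0.96 and Atp5o from -0.97 to 0.24. For siBRG1 at 18 h it was Ndufaf8 from -0.18 to 1.08, Sdhaf1 from -1.39 to 0.08, Atp5mpl from -0.88 to 0.03 and Ndufa1 from -1.01 to 0.47. For siBRM at 48 h it was Atp5e from -0.16 to 1.08, Ndufc1 from -0.07 to 0.98 and Ndufb9 from -1.97 to 0.52. For siBRG1 at 48 h it was Atp5e from -0.18 to 1.07, Sdhb from -1.43 to 0.30 and Ndufb9 from -1.64 to 0.57. For siBRM against siBRG1 it was Sdhb from -0.62 to 1.76, Ndufaf8 from -0.90 to 0.24 and Atp5o from -0.83 to 0.38 at 18 h, and Sdhd from -0.75 to 2.00, Cox6c from -0.42 to 1.5, Ndufb9 from -1.43 to 1.06 and Ndufa4 from -0.42 to 0.09 at 48 h. For the change of the siBRM effect it was Ndufaf2 from -0.36 to 2.54, Ndufc1 from -0.09 to 1.15, Atp5mpl from -0.18 to 1.22, Sdhaf2 from -1.10 to 0.30 and Ndufs8 from -0.77 to 0.03. For that of siBRG1 it was Sdhaf1 from -0.24 to 1.23, Ndufb7 from -1.22 to 0.07 and Atp5d from -1.51 to 0.47. The cause of these changes was not tested. The averaged step and the counts of steps were added after the data were seen.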
